A study of Mus musculus with 12 samples.

Results

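The 80 genes described here encode proteins of the mouse cytosolic ribosome, 31 of the small (40S) subunit and 49 of the large (60S) subunit. They are the protein-coding genes, among 55487 in the deposited table, whose symbols have the form Rpl or Rps followed by a number and at most the letter a, l or x, together with Rplp0, Rplp1, Rplp2 and Rpsa. The name rule leaves out a few genuine ribosomal proteins such as Fau, which are taken up further on, and it takes in 4 paralogs (Rpl3l, Rpl10l, Rpl39l and Rps27l) that differ from the core set in where or when they are expressed. Of the 80 genes, 79 passed the filter on low counts and were tested. The exception was Rpl10l, a male germ cell copy of Rpl10, with 2 counts in the library WT 1 and 0 in the other libraries.

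Each ribosomal protein is needed in one copy or a few per ribosome, and cells make the proteins in step with ribosomal RNA. Most of their mRNAs begin with a short unbroken run of the pyrimidines C and T (the terminal oligopyrimidine, or TOP, motif), through which the growth regulator mTOR and the RNA-binding protein Larp1 control their translation. In people, mutations that lower the dose of single ribosomal proteins cause Diamond-Blackfan anaemia, so that blood formation is the setting in which their dose is best known to matter.

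Bulk RNA-seq was made from Ly6C+ monocytes of mouse in 4 title groups with 3 libraries each. KO libraries came from fetal liver at E13.5 (E for embryonic day) and carry the genotype label KO. BM libraries came from bone marrow with genotype WT and no stated age. Mixed libraries came from fetal liver at E15.5 with genotype WT, and WT libraries came from fetal liver with genotype WT, at E13.5 for WT 1 and E15.5 for WT 2 and WT 3. The design text of the series names other material, TRMs of lung, liver, brain and spleen from wildtype and Z165KO mice, and does not say whether the KO libraries carry that line. What the title Mixed stands for is not stated in these sources. The labels do not state that the 3 libraries of a title are separate animals, and each p-value then covers no more than the variation among these libraries, part or all of which may be technical. The monocyte label was checked on Ly6c2, a Ly6C antigen gene, which had 1372 to 1684 CPM in KO (counts per 1e+06 counts, on TMM-scaled library sizes), 1907 to 1993 CPM in BM, 695 to 704 CPM in Mixed and 490 to 549 CPM in WT, and Csf1r and Ccr2 were also present in every library. The series title names cMaf and Zeb2. Zeb2, a zinc-finger repressor, was at 23.8, 20.1 and 22.5 CPM in KO, at 311 to 338 CPM in BM, at 159 to 179 CPM in Mixed and at 141 to 165 CPM in WT, with a log2 fold change of KO over WT of -2.75 (edgeR quasi-likelihood test, adjusted p = 3.95e-17).

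Starts of 60 of the 80 genes were matched by symbol to promoter entries of RefSeq (GRCm38.p6). The 30 bases around each start were searched, on the strand that reads like the mRNA, for an unbroken run of at least 7 C or T. Such a run was found in 33 of the 60 genes (55.0%), against 21.3% of all 27025 genes with an entry. A run of A or G of the same length, searched the same way, was found in 6.67% of the members and in 23.1% of all genes. Within the full 300-base entries the letters CCGGAAG, read on either strand and able to overlap a C or T run through their reverse complement, were found in 41.7% of members against 9.93% of all genes, and AAGATGG on either strand in 15% against 7.28%. The windows of 7 members are printed because these genes lie at the ends of the response described below: Rps26, Rpl12, Rps21 and Rpl5 were among the members that fell most in bone marrow, and Rpl13, Rps9 and Rps27 among those that moved least. Capitals mark the longest unbroken run of C or T.
Rps26 (chr10:128626492-128626521, minus strand): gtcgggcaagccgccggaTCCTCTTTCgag
Rpl12 (chr2:32961697-32961726, plus strand): ggcggagcaggatccgTCTTTTCggctttc
Rps21 (chr2:180257364-180257393, plus strand): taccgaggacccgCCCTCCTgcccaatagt
Rpl5 (chr5:107900513-107900542, plus strand): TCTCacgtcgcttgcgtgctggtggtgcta
Rpl13 (chr8:123102335-123102364, plus strand): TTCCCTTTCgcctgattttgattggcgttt
Rps9 (chr7:3704026-3704055, plus strand): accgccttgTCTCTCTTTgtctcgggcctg
Rps27 (chr3:90213634-90213663, minus strand): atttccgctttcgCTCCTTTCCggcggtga
The longest run was 9 bases in Rps26 and also 9 bases in Rps9 and Rps27, so genes of both ends carried one. The runs of Rpl13 (9 bases) and Rpl5 (4 bases) begin at the first base of the window, so these lengths are lower limits. The windows of Rps26, Rpl12, Rpl5 and Rps9 begin downstream of the start of the gene in GENCODE. For Rps26 the window begins at 128626521 and the gene at 128626747 on the minus strand. The runs of these genes thus need not lie at the GENCODE start.

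Ribosomal protein genes took a smaller part of the library in bone marrow than in any fetal liver group. Their summed share of counts was 5.38, 5.75 and 5.53% in KO, 3.67, 3.54 and 3.77% in BM, 5.12, 5.29 and 5.31% in Mixed, and 5.81, 5.73 and 5.74% in WT. No BM library overlapped a fetal liver library, all Mixed libraries lay below all WT libraries, and KO overlapped neither BM nor Mixed but did overlap WT through KO 2. On the deposited TPM scale, which is per length, the members held 11.6 to 12.3% of all TPM in KO, 8.91 to 9.37% in BM, 11.6 to 12% in Mixed and 12.7 to 13.2% in WT. Here KO overlapped Mixed and lay below WT, so the order of the fetal liver groups depended on the scale, while BM was lowest on both. These are shares of each library, and in bulk samples fewer cells of a type and less RNA per cell cannot be told apart.

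**Figure D1:**
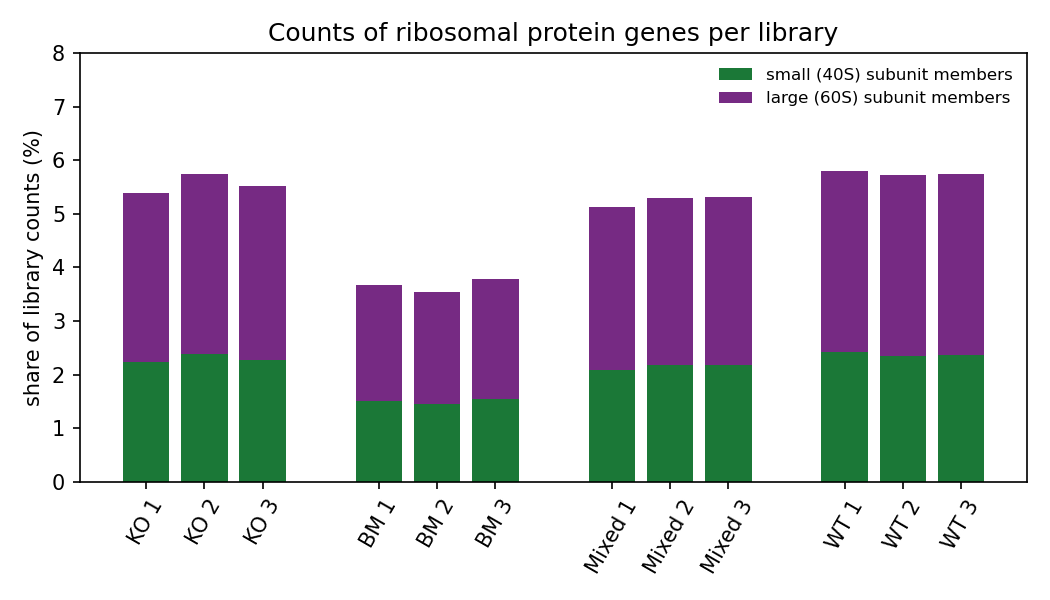
Share of each library's counts (vertical axis, %) held by small and large subunit members (stacked bars), for the 3 libraries of KO, BM, Mixed and WT. The BM bars reach 3.54 to 3.77%, below every fetal liver bar.

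The balance of the subunits moved little beside these shares. The ratio of small to large subunit counts was 0.714, 0.713 and 0.703 in KO, 0.699, 0.691 and 0.694 in BM, 0.688, 0.696 and 0.690 in Mixed, and 0.721, 0.695 and 0.703 in WT. The BM and WT ratios overlapped, whereas every KO ratio lay above every BM and every Mixed ratio. The 319 entries annotated as ribosomal protein pseudogenes, which share near-identical sequence with the members, followed the same order, with 0.625 to 0.647% of counts in KO, 0.392 to 0.406% in BM, 0.595 to 0.61% in Mixed and 0.633 to 0.662% in WT. How reads were divided between members and such copies is not given in the sources used here, and the level of every member is uncertain to that extent. The library kit did not mark strand. The spans of 21 members, introns included, overlap a gene on the other strand, among them Rpl5 and Rpl12. Reads from bases shared by exons of both genes could not be told apart, but overlap of exons was not examined.

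Levels of the members differed widely per length. By mean TPM over the 12 libraries the highest included Rpl32 (5092 TPM), Rpl41 (4417 TPM), Rps19 (4032 TPM) and Rps14 (3690 TPM), Rps19 being the gene most often mutated in Diamond-Blackfan anaemia. The median member stood at 1088 TPM. The lowest were Rpl5 (196 TPM), Rpl12 (158 TPM), and the paralogs Rpl39l (3.76 TPM), Rpl3l (0.769 TPM) and Rpl10l (0.0143 TPM).

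Bone marrow monocytes were compared with WT fetal liver monocytes first, since this was the widest difference among groups of the same genotype label. Of the 79 members tested, 75 were lower in BM and 0 were higher, in a comparison where 64% of all 14618 genes tested were called, 31.9% lower and 32.1% higher (edgeR quasi-likelihood test, adjusted p below 0.05 over all genes). At an unadjusted p below 0.05, 76 members were lower and 0 higher, and DESeq2 also called 75 lower and 0 higher. The median log2 fold change of BM over WT was -0.74 over the members, against 0 over all genes tested. In 76 members every BM library lay below every WT library, against 34% of all genes tested. The fall was shared by the subunits, with 29 of 31 small subunit genes (median -0.71) and 46 of 48 large subunit genes (median -0.79) lower.

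Rps26, a small subunit protein that lines the channel by which mRNA leaves the ribosome, stood out among the well expressed members. It had 1455, 1543 and 1255 CPM in KO libraries, 345, 316 and 349 CPM in BM, 1062, 1139 and 1149 CPM in Mixed, and 1594, 1487 and 1165 CPM in WT. All 3 BM libraries were far below the other 9, among which KO and WT overlapped and Mixed lay just below both. Rps26 (chromosome 10, 128624534 to 128626747, minus strand) fell by 2.07 on the log2 scale in BM relative to WT (SE 0.113, adjusted p = 1.22e-08).

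Rpl5 binds 5S ribosomal RNA together with Rpl11, and the free complex is known to bind the p53 regulator Mdm2. Rpl5 was at 116, 101 and 108 CPM in BM, against 296, 296 and 257 CPM in WT, a log2 fold change of -1.39 (SE 0.0656, adjusted p = 4.91e-14). Its partner Rpl11 was at 184, 175 and 185 CPM in BM, against 366, 353 and 354 CPM in WT, a log2 fold change of -0.98 (SE 0.0539, adjusted p = 6.82e-13). Both thus fell beyond the spread of their libraries, Rpl5 by more than the median member.

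Rpl12, which sits at the base of the stalk where elongation factors dock, was at 47.4, 42.7 and 49.5 CPM in BM, against 127, 123 and 112 CPM in WT. Rps21 was at 95.8, 89.5 and 108 CPM in BM, against 248, 248 and 240 CPM in WT. Rps20, of the head of the small subunit, was at 191, 168 and 194 CPM in BM, against 476, 458 and 431 CPM in WT. In all 3 genes the BM libraries lay below all WT libraries. The log2 fold changes were -1.37 for Rpl12, -1.33 for Rps21 and -1.31 for Rps20, the highest of the 3 adjusted p being 1.26e-13.

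At the other end, 4 members were not called between BM and WT. Rps27, a zinc-finger protein of the small subunit, was at 252, 255 and 277 CPM in BM, against 259, 248 and 256 CPM in WT, with overlapping libraries (log2 fold change 0.04, adjusted p = 0.588). On the deposited TPM scale every BM library (1769 to 1876 TPM) lay above every WT library (1577 to 1621 TPM). Rps9, a core small subunit protein, was at 1527, 1514 and 1501 CPM in BM, against 1590, 1510 and 1543 CPM in WT (log2 fold change -0.03, adjusted p = 0.536). The rare paralog Rpl3l was also not called. Small changes among the called members were those of Rpl13 (log2 fold change -0.14, adjusted p = 0.0326), Rps19 (-0.26, adjusted p = 0.000174) and Rpl32 (-0.27, adjusted p = 6.26e-05). For these genes a fall was small or not detected while most of the ribosome's other genes fell, and Rpl32 and Rps19, both among the members with the highest TPM, were in this group.

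**Figure D2:**
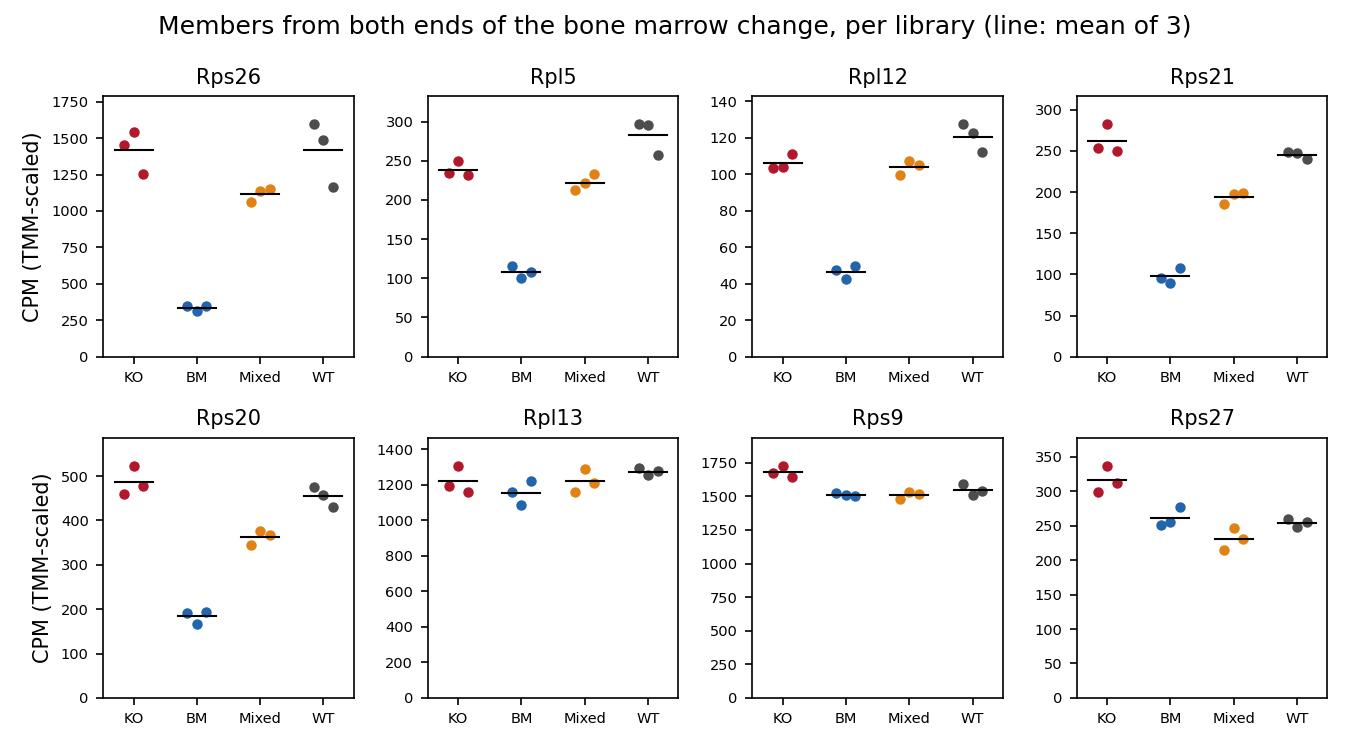
CPM on TMM-scaled library sizes (vertical axes, each from 0) of 8 members in the libraries of KO, BM, Mixed and WT, with points for libraries and lines for the mean of 3. Rps26 shows BM at 316 to 349 CPM below every other library, while Rps9 and Rps27 show BM and WT overlapping.

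To ask which members left the common trend, the same test was run with each library's size set to its summed member counts, so that a gene moving with the sum has a log2 fold change near 0. A member was counted as off the trend with an adjusted p below 0.05 over all genes and a change of at least 0.32 on the log2 scale. Between BM and WT, 7 members lay above the trend and 24 below it. Of all genes tested 67.6% were off it, 8292 above and 1585 below. This scaling centres the members near 0 and shifts the other genes by the change of the sum. The share of all genes off the trend, here and below, is therefore no background for the members. The sum is led by the most abundant genes, and when the members were instead scaled by TMM among themselves the split was 12 above and 12 below. Under both scalings 19 members were off the trend. Those above it included Rps27 (log2 fold change against the sum 0.64), Rps9 (0.57), Rpl13 (0.46), Rps19 (0.34), Rpl32 (0.33) and Rps14 (0.32). Those below it, 12 in all, included Rpl39l, Rps26 (-1.47), Rpl5 (-0.79), Rpl12 (-0.77), Rps21 (-0.73), Rps20 (-0.71), Rpl36a (-0.58), Rpl14 (-0.56), Rpl31 (-0.54), Rpl27 (-0.51) and Rps27a (-0.50). Both subunits were on both sides. Rpl39l, off the trend in every contrast with BM, passed the filter on low counts only through the fetal liver groups.

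Across the 79 members, the log2 fold change of BM over WT had a Spearman rho of 0.62 with mean TPM, of 0.13 with coding length and of 0.27 with coding GC content. Over the 77 members above 100 TPM the rho with TPM was 0.59. These are descriptions over genes that share the same 12 libraries, and the TPM mean is taken over libraries that also enter the fold change.

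BM set against the other fetal liver groups gave the same direction, and the contrasts share the BM libraries with the one above. Against Mixed, 73 members were lower in BM and 1 was higher, where 58.4% of all genes tested were called, 28.9% lower and 29.5% higher, and the median was -0.60. The member that was higher was Rps27 (log2 fold change of BM over Mixed 0.18, SE 0.0603, adjusted p = 0.0148), at 252, 255 and 277 CPM in BM and 215, 247 and 231 CPM in Mixed, a call that was lost in 5 of 19 alternatives, namely no filter on low counts, library size scaling alone, and leaving out BM 2, BM 3 or Mixed 1. Against the sum of the members, 5 lay above the trend and 16 below it, with 60.7% of all genes tested off it, and TMM over the members gave 11 above and 10 below, which turns the balance. The 15 off under both were 5 above, among them Rps27 (0.64) and Rps9 (0.47), and 10 below, among them Rps26 (-1.26), Rpl12 (-0.69) and Rpl5 (-0.57).

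KO monocytes had 77 members higher and 0 lower than BM, where 63.8% of all genes tested were called, 32% higher and 31.8% lower. The median log2 fold change of KO over BM was 0.77. At an unadjusted p below 0.05 the counts were again 77 and 0, and DESeq2 gave 77 and 0. All 31 small subunit genes (median 0.70) and 46 of 48 large subunit genes (median 0.85) were higher. Rpl13 was among those not called (log2 fold change 0.08, adjusted p = 0.225). The largest changes were in Rpl39l (3.52), Rps26 (2.08, adjusted p = 1.25e-08), Rpl3l (2.01, adjusted p = 0.00209), Rps21 (1.42) and Rps20 (1.40). Rpl39l and Rpl3l were low in BM and passed the filter on low counts only through fetal liver libraries. Their ranks, and their place among the members off the trend, are therefore no support. Against the sum, 20 members lay above the trend and 6 below, with 70.9% of all genes tested off it. TMM over the members gave 13 and 11, and 19 were off under both, 13 above and 6 below.

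Several other quantities moved with the BM libraries, and their part in the low ribosomal protein counts was not tested. Over all genes tested, 31.9% were lower and 32.1% higher in BM than in WT. All 10 erythroid markers tested were lower in BM than in WT, with a summed level of 14.8 to 31.8 CPM in BM against 1034 to 1926 CPM in WT. Of 29 proliferation genes 22 were lower and 1 was higher in BM, with a sum of 6684 to 7045 CPM in BM against 9114 to 9400 CPM in WT. Stem and progenitor markers were lower in 6 of 7 genes, with a sum of 50.6 to 58.2 CPM in BM against 593 to 640 CPM in WT, and neutrophil granule markers in 6 of 10, with 728 to 894 CPM in BM against 4347 to 6181 CPM in WT. Liver parenchyma markers were lower in 8 of 9 genes, with Alb at 0 in all 3 BM libraries, but their sum was higher, at 513 to 558 CPM in BM against 192 to 381 CPM in WT, through Trf (512 to 558 CPM in BM against 179 to 306 CPM in WT). Macrophage markers were lower in 7 of 8 genes, again with a higher sum, at 312 to 325 CPM in BM against 210.0 to 277 CPM in WT, through Adgre1 (308 to 321 CPM in BM against 167 to 204 CPM in WT). B cell markers were higher in 5 of 6, with 952 to 1090 CPM in BM against 136 to 163 CPM in WT, dendritic cell markers in 5 of 9, with 953 to 1068 CPM in BM against 104 to 137 CPM in WT, and monocyte markers were higher in 8 and lower in 4 of 12, with a sum of 35765 to 36710 CPM in BM against 16915 to 19262 CPM in WT. BM libraries come from another tissue and carry no age label, so tissue and age cannot be told apart here.

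KO was compared with WT fetal liver monocytes to ask what moves with the KO label. Of the 79 members, 9 were higher and 3 lower in KO, with a median log2 fold change of 0.02, in a comparison where 18.2% of all genes tested were higher and 19.9% lower. In total 12 of 79 members were called against 38.1% of all genes. The counts were 4 higher and 1 lower of 31 small subunit genes (median 0.06) and 5 higher and 2 lower of 48 large subunit genes (median 0). The direction of this split depended on the scaling and on single libraries: with library size alone 1 member was higher and 24 were lower, where the median of all genes tested was -0.13 against -0.03 with TMM, and without KO 2 the counts were 4 higher and 8 lower. Relative to the median of all genes tested, the member median was 0.05 under both scalings. Without WT 1 the counts were 5 higher and 1 lower, and without WT 2 they were 4 higher and 2 lower. Monocyte markers were lower in KO than in WT in 8 of 12 genes and higher in 3, with a sum of 10401 to 10975 CPM in KO against 16915 to 19262 CPM in WT, and neutrophil granule markers were higher in 5 of 10, with 10619 to 13390 CPM in KO against 4347 to 6181 CPM in WT. Dendritic cell markers were higher in 9 of 9 genes, with 2791 to 2831 CPM in KO against 104 to 137 CPM in WT. B cell markers were higher in 2 and lower in 1 of 6, with 421 to 506 CPM in KO against 136 to 163 CPM in WT, and stem and progenitor markers were lower in 3 and higher in 1 of 7, with 221 to 257 CPM in KO against 593 to 640 CPM in WT. Their part in the member values was not tested.

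**Figure D3:**
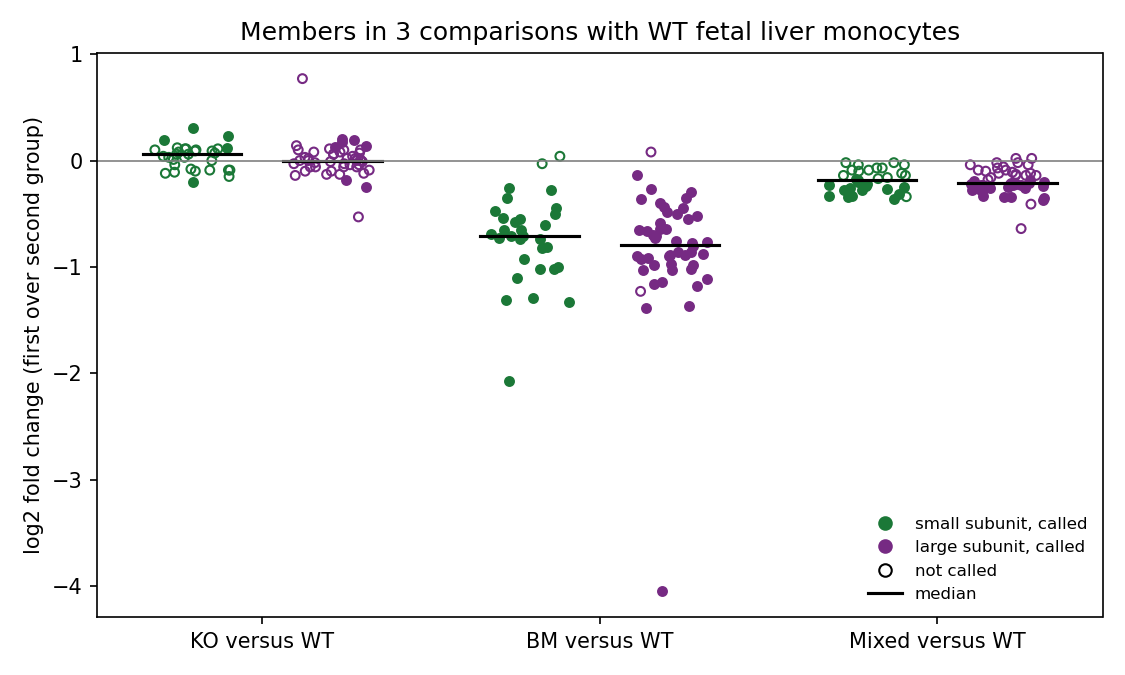
Log2 fold change (vertical axis) of each tested member in KO over WT, BM over WT and Mixed over WT, small and large subunit side by side, filled where called at an adjusted p below 0.05, with the median as a line. The BM medians lie at -0.71 and -0.79, the Mixed medians at -0.18 and -0.21, and the KO medians at 0.06 and 0.

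Rps27 was higher in KO than in WT under every setting tried. It had 299, 337 and 312 CPM in KO libraries, against 259, 248 and 256 CPM in WT, without overlap. Its log2 fold change was 0.31 (SE 0.0602, adjusted p = 0.000243), and it was called under all 20 alternatives (log2 fold change 0.21 to 0.35, adjusted p up to 0.0145). Rps27 was also higher in KO than in BM (0.28, adjusted p = 0.000407) and than in Mixed (0.45, adjusted p = 3e-06), contrasts that share the KO libraries. On the deposited TPM scale Rps27 overlapped between KO (1710 to 1889 TPM) and BM (1769 to 1876 TPM). Both lay above Mixed (1420 to 1591 TPM) and WT (1577 to 1621 TPM) there.

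Rpl5 was the other member called under all 20 alternatives, in the opposite direction. It had 234, 249 and 232 CPM in KO libraries, against 296, 296 and 257 CPM in WT, and every KO library lay below every WT library. Its log2 fold change was -0.25 (SE 0.0636, adjusted p = 0.0036, with a highest adjusted p over the alternatives of 0.025). Rpl11 had a log2 fold change of 0.08 in the same contrast (adjusted p = 0.286).

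Of the stalk genes, Rplp0 and Rplp1 were higher in KO, while Rplp2 was not called (log2 fold change 0.11, adjusted p = 0.0884). Rplp0, the anchor of the stalk, had 2661, 2841 and 2777 CPM in KO libraries, against 2296, 2427 and 2557 CPM in WT (log2 fold change 0.19, adjusted p = 0.00377). Rplp1 had 724, 818 and 754 CPM in KO libraries, against 675, 664 and 704 CPM in WT (log2 fold change 0.17, adjusted p = 0.0229). Rpl13a (0.20, adjusted p = 0.00216) and Rpsa, the small subunit protein first known as a laminin receptor (0.23, adjusted p = 0.0235), were also higher, as were Rps9 (0.12) and Rpl9. The other 2 lower members were Rps27l (-0.20, adjusted p = 0.0203) and Rpl12 (-0.18, adjusted p = 0.0311). With embryonic day as a covariate 7 members were higher and 4 lower, where 26.3% of all genes were called, and of the WT libraries only WT 1 shares E13.5 with KO. Apart from Rps27 and Rpl5, each of these calls was lost in 1 or more of the 20 alternatives, Rplp0 and Rpl13a in library size scaling only. On the deposited TPM scale KO and WT libraries overlapped for Rplp0 (means 2694 and 2632 TPM), Rplp1 (2603 and 2581 TPM) and Rpsa (1369 and 1305 TPM). Mean TPM was lower in KO than in WT for Rpl13a (3496 against 3516 TPM), Rps9 (3119 against 3225 TPM) and Rpl9 (1240 against 1256 TPM). The rises of these genes thus depended on the scale. Against the summed members, 21 members had an adjusted p below 0.05 in edgeR, 5 above and 16 below (25 at an unadjusted p below 0.05). The share of all genes at that adjusted p alone was not counted. Each of the 21 changes was smaller than 0.32 on the log2 scale. With that threshold 0 members were off the trend, where 29.5% of all genes tested were. TMM over the members also gave 0.

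KO against Mixed gave a broad and shallow rise on TMM-scaled counts. On the deposited TPM scale the members' share overlapped, at 11.6 to 12.3% in KO and 11.6 to 12% in Mixed. Mean TPM per member was 1675 in KO and 1642 in Mixed for the small subunit. For the large subunit it was 1384 in KO and 1388 in Mixed. Of 79 members, 56 were higher in KO and 0 lower, where 36.7% of all genes tested were called, 18.2% higher and 18.5% lower (edgeR), and 67 had an unadjusted p below 0.05, while DESeq2 called 66 higher and 0 lower. The median log2 fold change was 0.19, with 24 of 31 small subunit genes and 32 of 48 large subunit genes higher and the same median in each. In 67 members every KO library lay above every Mixed library, against 23.7% of all genes tested. With library size scaling alone 22 were higher and 0 lower, at a member median 0.21 above that of all genes under either scaling.

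Among the called members the largest changes were in Rps27, Rps21, Rps20 and Rpl22. Rps27 had 299, 337 and 312 CPM in KO libraries, against 215, 247 and 231 CPM in Mixed (log2 fold change 0.45). Rps21 had 254, 282 and 249 CPM in KO libraries, against 186, 198 and 198 CPM in Mixed (0.43, adjusted p = 1.22e-05). Rps20 had 0.42 (adjusted p = 1.21e-05), Rpl22 had 0.36 (adjusted p = 0.000364) and Rps12 had 0.34 (adjusted p = 0.000132), each without overlap between the groups. Rpl13, Rpl12 and Rpl3 had log2 fold changes of 0, 0.03 and 0.05. Against the sum, 11 members had an adjusted p below 0.05 in edgeR, 9 above and 2 below (16 at an unadjusted p below 0.05). The share of all genes at that adjusted p alone was not counted. Each of the 11 changes was smaller than 0.32 on the log2 scale. With that threshold 0 of 79 were off the trend, also with TMM over the members, where 35.9% of all genes tested were off it.

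All KO libraries are from E13.5 and all Mixed libraries from E15.5, so the label and the day cannot be told apart within this pair. When embryonic day was added to a fit of the 9 fetal liver libraries, of which WT holds both days, 11 members were higher and 0 lower at a median of 0.18, while the share of all genes called was 14% in that fit. Dendritic cell markers were higher in KO than in Mixed in 9 of 9 genes, with a sum of 2791 to 2831 CPM in KO against 72.0 to 84.3 CPM in Mixed, and neutrophil granule markers in 6 of 10, with 10619 to 13390 CPM in KO against 3481 to 3783 CPM in Mixed. Monocyte markers were lower in KO in 8 of 12 genes and higher in 4, with a sum of 10401 to 10975 CPM in KO against 20144 to 20562 CPM in Mixed. B cell markers were higher in 2 and lower in 1 of 6, with 421 to 506 CPM in KO against 161 to 187 CPM in Mixed. Stem and progenitor markers were higher in 2 (Myb and Meis1) and lower in 1 of 7. Their sum was lower, at 221 to 257 CPM in KO against 582 to 607 CPM in Mixed, through Cd34 (165 to 180 CPM in KO against 525 to 548 CPM in Mixed). Over all genes tested, 18.2% were higher and 18.5% lower in KO than in Mixed in the main fit. The part of these markers in the rise over Mixed was not tested.

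Mixed was set against WT, the pair with the fewest changed genes. Of 79 members, 42 were lower in Mixed and 0 were higher, where 8.07% of all genes tested were called, 3.87% lower and 4.21% higher (edgeR), and the median log2 fold change was -0.20. At an unadjusted p below 0.05, 57 were lower and 0 higher, and DESeq2 called 50 lower and 0 higher. In 64 members every Mixed library lay below every WT library, against 14.1% of all genes tested. The subunits shared the fall, with 16 of 31 small and 26 of 48 large subunit genes lower. Monocyte markers were higher in Mixed in 5 of 12 genes and lower in 1, with a sum of 20144 to 20562 CPM in Mixed against 16915 to 19262 CPM in WT. Dendritic cell markers were lower in 3 of 9 genes, with 72.0 to 84.3 CPM in Mixed against 104 to 137 CPM in WT. Of 10 neutrophil granule markers 0 were called, with 3481 to 3783 CPM in Mixed against 4347 to 6181 CPM in WT. Their part in the fall was not tested.

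Rpl39, which lines the exit tunnel of the large subunit, was at 204, 218 and 216 CPM in Mixed, against 284, 266 and 275 CPM in WT, without overlap (log2 fold change -0.37, SE 0.0617, adjusted p = 0.00104). Rps27l was at 144, 154 and 159 CPM in Mixed, against 211, 198 and 179 CPM in WT (-0.36, adjusted p = 0.00242). Rpl5 was at 213, 221 and 233 CPM in Mixed, against 296, 296 and 257 CPM in WT (-0.35, adjusted p = 0.00213). Rpl23 and Rpl30 had -0.34 each. Rps19, among the highest members by TPM, was not called (-0.02, adjusted p = 0.847).

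The number of calls between Mixed and WT depended on single libraries, among members and all genes alike, while the member median moved little. Without Mixed 1, 13 members were lower and 0 higher at a median of -0.16, with 2.75% of all genes called. Without WT 1, which leaves only E15.5 libraries in the pair, 24 were lower and 0 higher at a median of -0.19, with 3.07% of all genes called. With embryonic day as a covariate 21 were lower and 0 higher at a median of -0.18, with 2.83% of all genes called. The day term there again rests on WT 1 against WT 2 and WT 3. Against the sum, 12 members had an adjusted p below 0.05 in edgeR, 2 above and 10 below (30 at an unadjusted p below 0.05). The share of all genes at that adjusted p alone was not counted. Each of the 12 changes was smaller than 0.32 on the log2 scale. With that threshold 0 were off the trend, also with TMM over the members, where 9.44% of all genes tested were off it. Across members, the log2 fold change had a Spearman rho of 0.60 with mean TPM, 0.58 with coding GC content and 0.40 with coding length, again over genes of the same libraries.

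The name rule takes in paralogs that are known for restricted expression. Rpl39l, an autosomal and testis-enriched copy of X-linked Rpl39, had 3.14, 1.68 and 1.69 CPM in KO libraries, 0.165, 0.186 and 0.198 CPM in BM, 1.65, 1.82 and 2.60 CPM in Mixed, and 3.12, 3.35 and 2.96 CPM in WT. The BM libraries held 11 counts in all, against 194 in WT, and the log2 fold change of BM over WT was -4.05 (SE 0.398, adjusted p = 9.91e-09). It was the steepest change of any tested member in this contrast, in a gene whose mean level per length was 3.76 TPM against 597 TPM for its partner. Rpl39l passed the filter on low counts only through the fetal liver groups, so this rank is no support for a change. Rpl39 itself was at 139, 126 and 138 CPM in BM, against 284, 266 and 275 CPM in WT (log2 fold change -1.03, adjusted p = 3.65e-12).

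The coding sequences of the pair are shown to make clear how far reads of one can be assigned to it. Both are 156 bases long in GENCODE M21 and differ at 23 positions (85.3% identical), which are in capitals, and the longest stretch without a difference is 38 bases.
Rpl39l (chr16:10170226-10174911, plus strand): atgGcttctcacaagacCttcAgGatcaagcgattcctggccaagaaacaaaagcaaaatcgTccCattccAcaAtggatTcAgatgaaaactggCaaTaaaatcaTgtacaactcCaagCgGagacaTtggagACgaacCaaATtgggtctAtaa
Rpl39 (chrX:37082520-37085402, minus strand): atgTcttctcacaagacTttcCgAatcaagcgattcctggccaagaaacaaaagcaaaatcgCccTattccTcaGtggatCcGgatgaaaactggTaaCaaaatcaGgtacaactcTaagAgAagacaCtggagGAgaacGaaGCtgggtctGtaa
The coordinates are those of the whole genes. Differences are spread along the sequence, and Rpl39l and Rpl39 remain uncertain to the extent that reads within the shared stretch were divided between them.

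Rpl3l, known from skeletal and heart muscle, had 1.14, 0.841 and 1.10 CPM in KO libraries, 0.385, 0.326 and 0.0496 CPM in BM, 0.412, 0.410 and 0.529 CPM in Mixed, and 0.614, 0.715 and 0.470 CPM in WT. KO lay above the other groups without overlap, but of the 3 contrasts with KO only that with BM was called (adjusted p = 0.00209), the adjusted p being 0.21 against WT and 0.058 against Mixed. Its partner Rpl3 had 2343, 2605 and 2510 CPM in KO libraries, 1638, 1741 and 1690 CPM in BM, 2309, 2401 and 2472 CPM in Mixed and 2385, 2436 and 2444 CPM in WT, lower in BM and overlapping among the fetal liver groups. Rps27l, which is known as a p53 target, had 165, 183 and 163 CPM in KO libraries, 102, 90.9 and 100 CPM in BM, 144, 154 and 159 CPM in Mixed and 211, 198 and 179 CPM in WT. Its partner Rps27 was called higher in KO than WT while Rps27l was called lower, and in BM Rps27l fell by 1.00 on the log2 scale relative to WT (adjusted p = 2.95e-11) where Rps27 was not called. Rpl10, the partner of Rpl10l, and Rps4x were lower in BM than in WT, with log2 fold changes of -0.48 (adjusted p = 2.96e-07) and -0.65 (adjusted p = 7.88e-11).

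Ribosomal protein genes that the name rule misses were also mostly lower in BM. Of 8 tested, 7 were lower and 0 higher in BM than in WT (median -0.59), where 31.9% of all genes tested were lower. In KO against WT 2 were higher and 1 lower, where 38.1% of all genes were called. In Mixed against WT 4 were lower and 0 higher, where 3.87% of all genes were lower. Rpl22l1, the paralog of Rpl22, had 137, 151 and 133 CPM in KO libraries, 55.4, 46.5 and 51.6 CPM in BM, 103, 118 and 111 CPM in Mixed and 169, 144 and 141 CPM in WT, with a log2 fold change of BM over WT of -1.57 (adjusted p = 5.21e-13). Rack1, a scaffold on the small subunit, was at 512, 544 and 565 CPM in BM, against 896, 951 and 1002 CPM in WT (-0.81, adjusted p = 6.73e-12). Rps27rt, a retrotransposed copy of Rps27, was higher in KO than in WT (0.26, adjusted p = 0.00289) and than in Mixed (0.51, adjusted p = 1.36e-06), and reads of the copy and of Rps27 may be divided between them, so that the Rps27 values are uncertain to that extent.

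Other genes whose mRNAs carry the TOP motif, among them elongation factors, some initiation factors and Npm1, were read beside the ribosomal proteins. Of 20 tested, 13 were lower and 3 higher in BM than in WT (median -0.47), where 31.9% of all genes tested were lower and 32.1% higher. Npm1, a nucleolar chaperone of ribosome assembly, had 1640, 1619 and 1679 CPM in KO libraries, 480, 444 and 426 CPM in BM, 1316, 1366 and 1359 CPM in Mixed and 2013, 1883 and 1833 CPM in WT, no 2 groups overlapping. Its log2 fold change was -2.09 in BM over WT (adjusted p = 1.58e-18) and -0.50 in Mixed over WT (adjusted p = 8.7e-06). In KO against WT 4 of the 20 were higher and 5 lower, not far from the 38.1% of all genes called there. Eef2, the translocation factor, was higher in KO, at 1949, 1917 and 1997 CPM, against 1549, 1722 and 1699 CPM in WT (log2 fold change 0.24, adjusted p = 0.000498), and Pabpc1 was lower (-0.28, adjusted p = 0.0012). Against Mixed, 11 of the 20 were higher in KO and 0 lower, where 18.2% of all genes tested were higher.

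Most genes that build ribosomes fell in KO, where few ribosomal protein genes were called. Of 45 ribosome biogenesis genes, 42 were lower and 0 higher in KO than in WT, with a median log2 fold change of -0.56, while the ribosomal protein median was 0.02. Against Mixed, 31 of the 45 were lower in KO and 0 higher (median -0.31), where 56 of 79 ribosomal protein genes were higher. On the deposited TPM scale the shares of the ribosomal protein genes in KO and Mixed overlapped. In BM against WT both sets fell, with 41 biogenesis genes lower and 1 higher (median -1.12), and in Mixed against WT 12 were lower and 0 higher (median -0.21). Over all genes tested, 19.9% were lower in KO than in WT and 18.5% lower in KO than in Mixed. In BM and in Mixed, 31.9% and 3.87% of all genes were lower than in WT. No test of one list against the other was made.

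Gnl3, the nucleolar GTPase nucleostemin, had 44.6, 29.7 and 37.8 CPM in KO libraries, 16, 15.4 and 12.7 CPM in BM, 50.2, 50.5 and 50.0 CPM in Mixed and 74.2, 74.5 and 70.0 CPM in WT. The groups did not overlap, and the log2 fold change was -0.96 in KO over WT (adjusted p = 5.31e-07) and -2.31 in BM over WT (adjusted p = 1.18e-12). Ncl, nucleolin, had 710, 609 and 676 CPM in KO libraries, 244, 226 and 218 CPM in BM, 612, 642 and 596 CPM in Mixed and 885, 865 and 824 CPM in WT. Ncl in KO and Mixed overlapped, with WT above and BM below both. Wdr12, of the complex that processes large subunit precursors, had a log2 fold change of BM over WT of -2.16 (adjusted p = 2.24e-15).

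**Figure D4:**
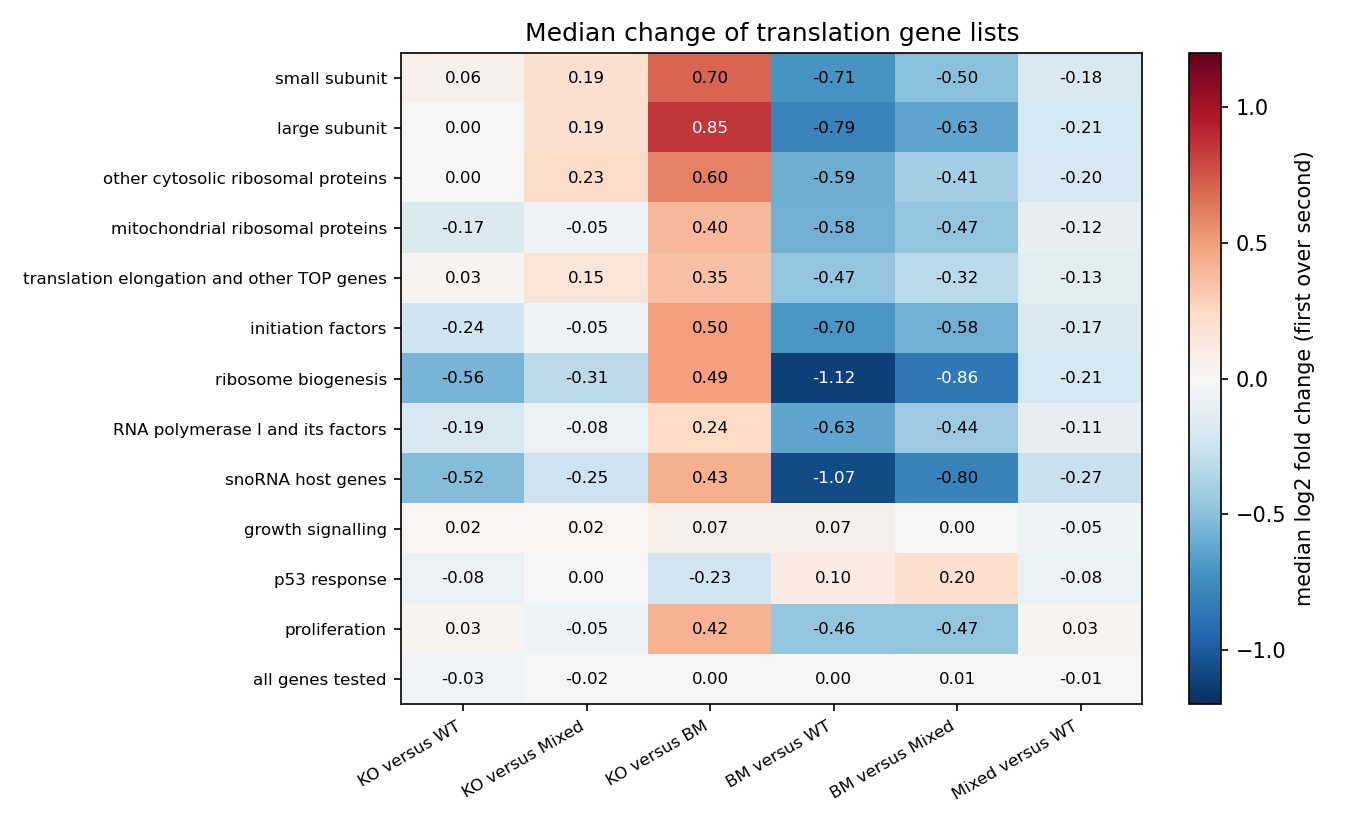
Median log2 fold change of each gene list (rows) in each of the 6 comparisons (columns, first group over second), with the value printed in each cell and red for higher in the first group. Ribosome biogenesis has -0.56 in KO over WT and -1.12 in BM over WT, whereas the small and large subunit members have 0.06 and 0.00 in KO over WT.

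Host genes of small nucleolar RNAs, many of which guide the modification of ribosomal RNA, were also mostly lower in KO and BM than in WT. Over all genes tested, 19.9% were lower in KO than in WT and 31.9% lower in BM than in WT. Of 14, 12 were lower and 0 higher in KO than in WT (median -0.52), and 13 were lower and 1 higher in BM than in WT (median -1.07). Snhg1 had 45.3, 41.9 and 43.6 CPM in KO libraries, 23.4, 18.6 and 21.9 CPM in BM, 49.2, 48.3 and 48.7 CPM in Mixed and 63.7, 57.5 and 59.1 CPM in WT, the groups not overlapping. Of 19 genes of RNA polymerase I and its factors, 8 were lower and 0 higher in KO than in WT, and 14 were lower and 2 higher in BM than in WT. The number called in KO lay near the 38.1% of all genes called in either direction, though all were lower. Polr1b, a catalytic core subunit, had a log2 fold change of KO over WT of -0.76 (adjusted p = 0.0068).

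Initiation factors of translation were lower in BM almost throughout and in part in KO. Over all genes tested, 19.9% were lower in KO than in WT, 31.9% in BM and 3.87% in Mixed. Of 21, 13 were lower and 0 higher in KO than in WT (median -0.24), 20 were lower and 0 higher in BM than in WT (median -0.70), and 7 were lower and 0 higher in Mixed than in WT. Eif4a1, the helicase of the cap-binding complex, had 711, 627 and 577 CPM in KO libraries, 230, 200 and 242 CPM in BM, 475, 663 and 560 CPM in Mixed and 798, 750 and 714 CPM in WT, and fell by 1.75 on the log2 scale in BM relative to WT (adjusted p = 2.91e-07). Proteins of the mitochondrial ribosome, a separate machine, were lower in KO than in WT in 34 of 78 genes and higher in 3 (median -0.17), and lower in BM than in WT in 70 and higher in 1 (median -0.58). Mrpl12 had log2 fold changes of -0.44 in KO over WT (adjusted p = 1.11e-05) and -1.48 in BM over WT (adjusted p = 2.77e-14).

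Growth regulators were called in both directions. Of 30 tested, 9 were higher and 6 lower in KO than in WT, where 38.1% of all genes were called, and 9 were higher and 8 lower in BM than in WT, where 64% were. Mxd1, which competes with Myc for its partner Max, had 127, 108 and 97.7 CPM in KO libraries, 16.2, 18.3 and 23.3 CPM in BM, 13.9, 17 and 13.3 CPM in Mixed and 14.7, 15.9 and 22.2 CPM in WT, and was higher in KO than in WT (log2 fold change 2.65, adjusted p = 1.31e-07). Myc, an activator of ribosome genes, had 69.2, 50.7 and 58.0 CPM in KO libraries, 27.0, 28.4 and 28.9 CPM in BM, 85.1, 75.2 and 83.9 CPM in Mixed and 92.8, 94.4 and 89.9 CPM in WT, and its log2 fold change was -1.72 in BM over WT (adjusted p = 3.43e-13). Deptor, an inhibitor of mTOR, was lower in KO than in WT (-2.04, adjusted p = 6.87e-12) and higher in BM than in WT (1.65, adjusted p = 2.56e-12).

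Of 18 targets of p53, which ribosome stress can induce, 4 were higher and 4 lower in KO than in WT, where 38.1% of all genes were called, and 9 were higher and 5 lower in BM than in WT, where 64% were. Trp53inp1 was higher in KO than in WT (log2 fold change 2.79, adjusted p = 2.01e-12), and Rps27l, itself a member, was lower. Proliferation genes separated BM from the fetal liver groups, as given above, but not KO from WT in one direction: 3 of 29 were higher and 5 lower in KO, with sums of 9396 to 9629 CPM in KO and 9114 to 9400 CPM in WT. The ribosomal protein genes themselves are spread over the genome, chromosome 7 holding the most with 14 of the 80.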

How the data were processed

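Gene expression was measured by RNA-seq in 12 libraries of mouse Ly6C+ monocytes, and the analysis started from 2 tables of the series. Estimated counts per gene were deposited by the authors, and 28.5% of the nonzero counts were not whole (tolerance 1e-06). A TPM table was also deposited by the authors and was used only for levels and shares per length. Salmon, STAR, featureCounts, Subread and DRAGEN are listed with mm10, per the submitters' processing notes, with no role stated. Per the labels' protocols, the cDNA kit was Takara's SMARTer Ultra Low, whose reads carry no strand.

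From 55774 entries, 287 that repeated a gene with identical values were removed, which left 55487 genes, and counts were rounded to whole numbers. Totals ran from 17384911 counts (WT 1) to 24473471 counts (KO 3). No 2 libraries held identical values. Genes were kept with edgeR's filterByExpr (minimum count 10, minimum total 15), which left 14618. Libraries were scaled by TMM and tested in 1 edgeR 4.0.16 quasi-likelihood fit with a mean per group (robust, biological coefficient of variation 0.0917), two-sided, with Benjamini-Hochberg adjustment over all 14618 genes and a threshold of 0.05. All groups of 3 thus share 1 estimate of the spread. The trend fit replaced library sizes by summed member counts. Alternatives were DESeq2 1.42.0, no filter, 3 other scalings, embryonic day as a covariate, a replicate block, only the groups compared, and leaving out each library, in R 4.3.3. The test was checked on simulated data. Each SE is the log2 fold change divided by the square root of the quasi-likelihood F statistic.

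The genes, the lists and the comparisons were chosen with earlier results of these data known, and the lists, from textbook knowledge, are no independent evidence. Genes were named by a rule: per comparison the 6 largest and 6 smallest changes and up to 8 members off the trend, the restricted paralogs with their partners, the 5 highest and 5 lowest by TPM, and up to 3 called genes of each other list. A few genes chosen this way are left unreported here. Named outside it after their values were seen were Rps14, Rpl36a, Rpl14, Rpl31, Rpl27 and Rps27a off the trend, Rpl11, Rplp1, Rps9 and Rpl9 in KO against WT, and the per-library values of Myc, Ncl and Npm1 in contrasts where the rule did not name them. Gene positions are 1-based from GENCODE M21 (GRCm38), and promoter windows are from RefSeq (GRCm38.p6) and were read with Python 3.11.15. Members with no promoter entry included Rpl17, Rpl21, Rpl23a, Rpl29, Rpl3, Rpl30, Rpl32, Rpl36, Rpl7, Rpl8, Rplp1, Rps14, Rps20, Rps27a and Rps29.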

Additional observations from a re-analysis of the deposited data

How the results depend on the processing

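The BM comparisons kept their direction and counts under every alternative run: 77 members higher in KO than in BM throughout, 74 to 76 lower in BM than in WT, and 73 or 74 called between BM and Mixed. Leaving out each library in turn gave 77 to 77 calls for KO against BM, 74 to 75 for BM against WT, 73 to 74 for BM against Mixed, 6 to 17 for KO against WT, 39 to 64 for KO against Mixed and 13 to 44 for Mixed against WT.

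Other counts moved, and the causes were not tested. For KO against WT, library size alone gave 25 calls, 1 higher and 24 lower, and leaving out KO 2 gave 12 calls, 4 higher and 8 lower, against 9 higher and 3 lower in the result as reported. For KO against Mixed, library size alone gave 22 and embryonic day as a covariate 11, against 56. For Mixed against WT embryonic day as a covariate gave 21, against 42. The day term rests on WT 1 against WT 2 and WT 3 alone. Members off the trend between BM and Mixed were 21 with TMM over the members, 11 above and 10 below, against 5 above and 16 below. Leaving out each library gave 0 to 1 off the trend for KO against WT, 0 to 0 for KO against Mixed, 24 to 28 for KO against BM, 28 to 31 for BM against WT, 21 to 22 for BM against Mixed and 0 to 1 for Mixed against WT.

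Deviations from the group mean were hardly correlated between libraries with the same number (correlations of -0.035 to 0.069). With 3 libraries per group this cannot exclude a shared batch. The numbers are used here only to name libraries. With the replicate number as a block, calls were 12 for KO against WT, 58 for KO against Mixed, 77 for KO against BM, 75 for BM against WT, 74 for BM against Mixed and 41 for Mixed against WT, and members off the trend were 0, 0, 26, 31, 22 and 0 in the same order. Each group has 3 libraries, and changes of low members such as Rpl39l and Rpl3l rest on few counts.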
